A study of Mus musculus with 13 samples.

Results

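The miRNAs described here are the 5 non-let-7 members of the 3 mouse miR-99/let-7/miR-125 clusters, mmu-miR-99a-5p, mmu-miR-99b-5p, mmu-miR-100-5p, mmu-miR-125a-5p and mmu-miR-125b-5p. They were chosen by name, as 5 of the 1079 mouse miRNAs on the array, and all 5 were detected on each of the 13 arrays. Male C57BL/6 mice received either standard chow (control, 6 tumors) or chow from the same batch with 4% curcumin, a polyphenol of turmeric (7 tumors). The diets started 14 days before B78H1 cells were injected under the skin of each flank, and tumors grew for 28 days. B78H1 is an amelanotic clone of the mouse B16 melanoma that lacks Tap-2 and MHC class I, so all tumors came from 1 clone in hosts of the matching strain, and the diet was given to the whole animal. The labels do not say which flank a tumor came from. Total RNA of each tumor was hybridised to an Agilent one-colour miRNA array, and the signal of an array is the brightness of its spots.

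The 13 arrays lay on 2 slides that each held both diets, with 3 curcumin and 2 control tumors on slide 1 and 4 of each on slide 2. All control tumors occupied array line 1 and all curcumin tumors array line 2 of the slides, so that diet and array line cannot be told apart. The summed signal ranged from 114095 to 281508 (median 205110) on curcumin arrays and from 150272 to 244666 (median 171250) on control arrays. Curcumin tumor 5 had the lowest summed signal and the fewest detected miRNAs, 272, against 313 to 412 on the control arrays. miR-211-5p, a miRNA of the melanocyte lineage, was detected in 6 of 6 control but in only 4 of 7 curcumin tumors, and the related miR-204-5p in 3 control tumors and in 0 of 7 curcumin tumors.

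A miRNA is a short RNA cut from one arm of a hairpin precursor that guides silencing proteins to messenger RNAs, mostly through its seed, the bases 2 to 8. In mammals a miR-99 or miR-100 hairpin, a let-7 hairpin and a miR-125 hairpin stand side by side in clusters that are conserved in animals. let-7 is best known for restraining growth-promoting genes as cells differentiate. The miR-99/100 family is known for repressing Mtor and the IGF1 receptor, and miR-125 for repressing Lin28, an inhibitor of let-7 maturation, and for roles in blood stem cells. miR-125b is also abundant in fibroblasts and other mesenchymal cells.

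The mature sequences show which miRNAs share a seed and thus may be expected to recognise overlapping sets of messages. RefSeq held all 5, and they are printed 5′ to 3′ with the seed in capitals. The first 3 share the seed ACCCGUA and form the miR-99/100 family, and the last 2 share CCCUGAG and form the miR-125 family.

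miR-99a-5p: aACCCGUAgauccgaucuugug

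miR-99b-5p: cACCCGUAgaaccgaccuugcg

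miR-100-5p: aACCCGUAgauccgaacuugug

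miR-125a-5p: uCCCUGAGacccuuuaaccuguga

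miR-125b-5p: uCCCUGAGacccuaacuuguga

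Counted from 1 at the 5′ end, miR-99a-5p and miR-100-5p differ only by U16A, the first base being that of miR-99a-5p. From miR-99a-5p to miR-99b-5p the changes are A1C, U11A, U16C and U21C. miR-125a-5p and miR-125b-5p have the first 13 bases in common and are 3 edits apart. How far the array probes of one relative also bind the other was not tested.

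In RefSeq on GRCm38.p6, all 9 hairpin genes lie on the plus strand of their chromosomes. miR-99a-5p comes from chr16:77598940-77598961, upstream of Mirlet7c-1 and Mir125b-2. miR-100-5p comes from chr9:41531437-41531458, upstream of Mirlet7a-2 and Mir125b-1, and the 3 genes overlap the noncoding host gene Mir100hg. miR-99b-5p (chr17:17830194-17830215), let-7e-5p (chr17:17830366-17830387) and miR-125a-5p (chr17:17830817-17830840) lie closest together, with 164 and 460 bases between the starts of neighbouring hairpins, inside the span of Spaca6. On chromosomes 16 and 9 the miR-125b hairpins start 46616 and 45210 bases after the let-7 hairpins. Since both miR-125b hairpins, at chr9:41581940-41581961 and chr16:77646279-77646300, give the same mature sequence, the array gives 1 value for both.

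With the curcumin diet, 4 of the 5 miRNAs were higher and miR-99a-5p did not pass the test. The increase was 3.73-fold for miR-125b-5p, 1.97-fold for miR-100-5p, 1.82-fold for miR-99b-5p and 1.60-fold for miR-125a-5p, each with a limma adjusted p below the threshold of 0.05 over all 1079 miRNAs. As background, 8.34% of all mouse miRNAs and 20.2% of the 243 detected on all 13 arrays were called higher in curcumin tumors, and 7.51% and 21.4% were called lower. In either direction, 15.8% of all and 41.6% of the detected miRNAs were called. Increases made up 52.6% of all calls, 20.4% without normalization between arrays, 69.5% with each array divided by its 75th percentile over every miRNA and 51.4% with that percentile taken over the 243 detected miRNAs. In that order, the 243 detected miRNAs had a median log2 fold change of -0.09, -0.26, -0.04 and -0.25. Among those 243 miRNAs ordered from the highest log2 fold change, miR-125b-5p stood at place 12, miR-100-5p at 39, miR-99b-5p at 45, miR-125a-5p at 50 and miR-99a-5p at 132. All levels below are log2 quantile-normalized signals, and levels of different miRNAs were not compared because their probes differ.

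miR-125b-5p, which has hairpins on chromosomes 9 and 16, had control levels from 8.63 to 9.66 with a median of 9.51. Its curcumin levels ran from 10.19 to 11.61 with a median of 11.38. Every curcumin tumor thus lay above every control tumor. The means were 11.22 ± 0.50 (SD, n = 7) and 9.32 ± 0.43 (SD, n = 6), which differ by a log2 fold change of 1.90 with a standard error of 0.26 and a 95% interval from 1.34 to 2.46 (limma adjusted p = 0.00179, exact permutation p = 0.00117, two-sided). Curcumin tumor 5 stood lowest at 10.19, with the next tumor at 11.09. Among the 243 detected miRNAs, 8.23% had all curcumin tumors above all control tumors.

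miR-125a-5p, which shares the seed but comes from the chromosome 17 cluster, ranged from 7.01 to 7.21 in control tumors (median 7.15) and from 7.42 to 8.19 in curcumin tumors (median 7.88). Its groups did not overlap either. The control tumors were close together at 7.14 ± 0.07 (SD, n = 6) and the curcumin tumors spread more widely at 7.82 ± 0.29 (SD, n = 7). The log2 fold change was 0.68 with a standard error of 0.12 and a 95% interval from 0.42 to 0.94 (limma adjusted p = 0.00407, exact permutation p = 0.00175).

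**Figure D1:**
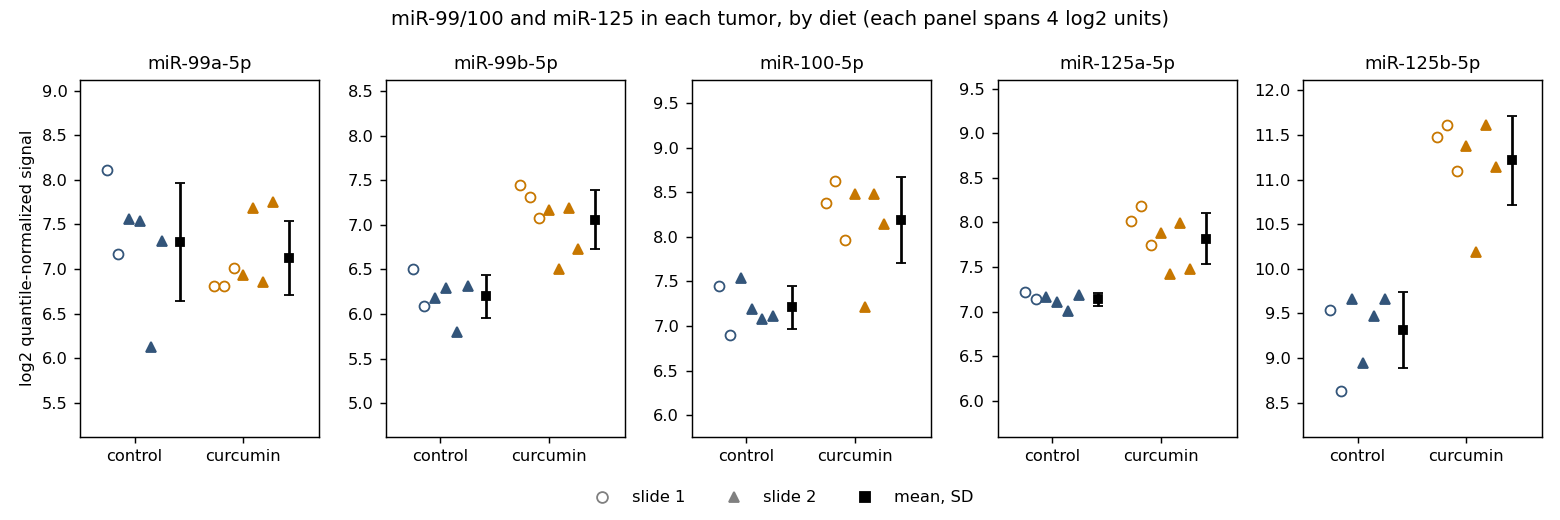
Log2 quantile-normalized signal of the 5 miRNAs (1 panel each, y axis) in the 6 control and 7 curcumin tumors (x axis), with open circles for slide 1, triangles for slide 2 and black squares with bars for mean and SD. The curcumin tumors lie above all control tumors for miR-125a-5p and miR-125b-5p, meet or overlap the control range through curcumin tumor 5 for miR-99b-5p and miR-100-5p, and are mixed with the controls for miR-99a-5p.

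miR-100-5p, of the chromosome 9 cluster, lay between 6.89 and 7.54 in control tumors (median 7.15) and between 7.21 and 8.63 in curcumin tumors (median 8.38). Curcumin tumor 5 had the value 7.21 and was the tumor that fell within the control range, the next lowest curcumin tumor being tumor 3 at 7.97. The means were 8.19 ± 0.48 (SD, n = 7) and 7.21 ± 0.24 (SD, n = 6), and the log2 fold change was 0.98 with a standard error of 0.22 and a 95% interval from 0.50 to 1.45 (limma adjusted p = 0.0117, exact permutation p = 0.0035).

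miR-99b-5p, with the same seed but in the chromosome 17 cluster, lay between 5.80 and 6.50 in control tumors (median 6.24) and between 6.50 and 7.45 in curcumin tumors (median 7.16). The groups met at a single level, since curcumin tumor 5 and control tumor 1 both had 6.50. The means of 7.06 ± 0.33 (SD, n = 7) and 6.20 ± 0.24 (SD, n = 6) gave a log2 fold change of 0.86 with a standard error of 0.16 and a 95% interval from 0.51 to 1.22 (limma adjusted p = 0.00538, exact permutation p = 0.00175).

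miR-99a-5p, which differs from miR-100-5p at 1 base, lay between 6.13 and 8.11 in control tumors (median 7.42) and between 6.81 and 7.75 in curcumin tumors (median 6.93). The curcumin values were within the control range, whose ends were control tumors 5 and 1. The log2 fold change was -0.18 with a standard error of 0.30 (limma adjusted p = 1, exact permutation p = 0.561). The 95% interval ran from -0.83 to 0.47, which is 0.563-fold to 1.38-fold, so a change of the size seen for miR-125a-5p or the other three lay outside it while a moderate decrease did not.

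Each miRNA was read by 2 different probes of 20 spots each, and the probes moved alike. The log2 fold changes of the pair were 2.21 and 1.80 for miR-125b-5p, 1.09 and 0.89 for miR-100-5p, 0.92 and 0.78 for miR-99b-5p and 0.90 and 0.57 for miR-125a-5p. All 8 probes of these 4 miRNAs were called higher, with limma adjusted p-values from 0.00366 to 0.0164, where 5.95% of the 2754 probes of mouse miRNAs were called higher. The probes of miR-99a-5p gave -0.22 and -0.06 (adjusted p of 0.950 and 1). For miR-125b-5p the brighter probe carried 89.7% of the signal.

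The direction of the 4 increases was the same on both slides. Within slide 1 and slide 2, the log2 fold changes were 2.31 and 1.65 for miR-125b-5p, 1.15 and 0.85 for miR-100-5p, 0.98 and 0.75 for miR-99b-5p and 0.80 and 0.57 for miR-125a-5p. For miR-99a-5p the direction differed between slides, with -0.76 on slide 1 and 0.17 on slide 2. With the fewer tumors of 1 slide no miRNA of the 5 passed the adjusted threshold, at limma adjusted p-values of 0.0892 to 0.501 on slide 1 and 0.198 to 1 on slide 2. With slide as a block in the fit of all 13 arrays, the 4 remained called, from 0.66 for miR-125a-5p to 1.90 for miR-125b-5p.

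The changes were larger without curcumin tumor 5, the array of lowest signal, at 2.08 for miR-125b-5p, 1.15 for miR-100-5p, 0.95 for miR-99b-5p and 0.75 for miR-125a-5p, and -0.28 for miR-99a-5p. Leaving out any of the 13 arrays kept the call of all 4 miRNAs. Without normalization between arrays, only miR-125b-5p passed (log2 fold change 2.04, limma adjusted p = 0.0404), although the estimates of the other three were 0.97, 0.68 and 0.73 for miR-100-5p, miR-99b-5p and miR-125a-5p.

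**Figure D2:**
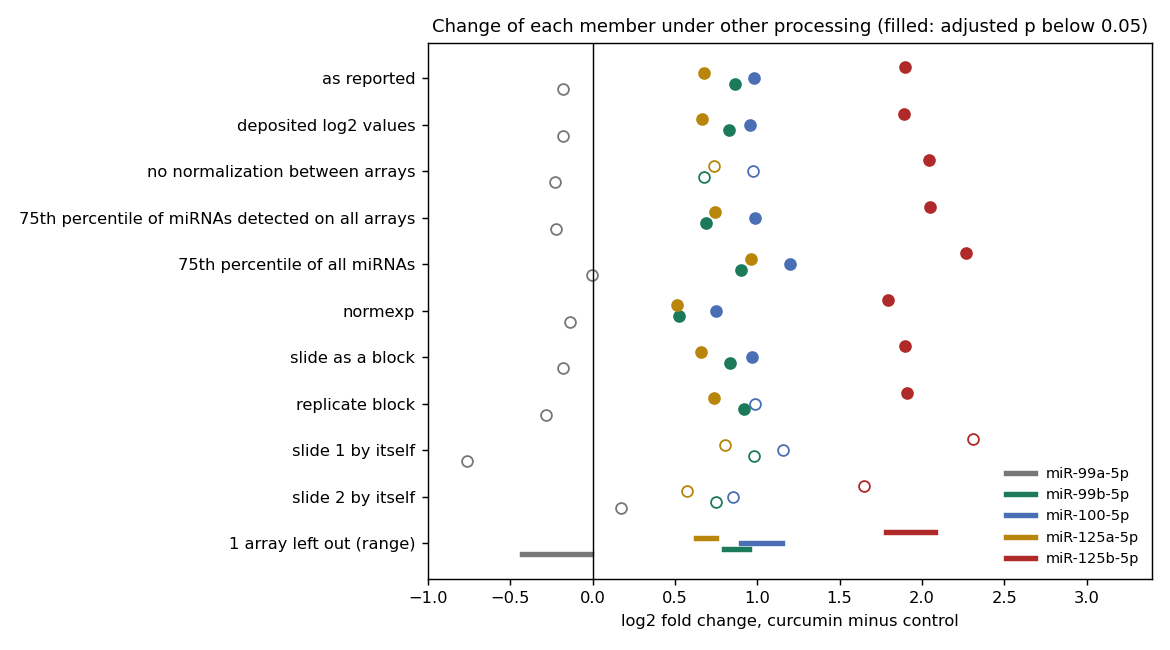
Log2 fold change of curcumin minus control (x axis) for the 5 miRNAs under each way of processing (y axis), filled where the limma adjusted p was below 0.05, with bars for the range over leaving out 1 array at a time. The 4 miRNAs other than miR-99a-5p lie to the right of 0 in each row, with miR-125b-5p farthest from 0 between 1.65 and 2.31, whereas miR-99a-5p lies near or below 0 and reverses on slide 2.

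The size of the increase was not equal among the 4 miRNAs. A scaling factor common to an array cancels in the difference of 2 of its log2 signals, but an effect that depends on signal level does not. Quantile normalization acts by signal level, so the differences still depend on it. The 10 differences between the 5 miRNAs were compared between the diets with exact permutation tests, adjusted over the 10. miR-125b-5p rose more than each of the others. The log2 fold change of the other miRNA minus that of miR-125b-5p was -0.92 for miR-100-5p, -1.04 for miR-99b-5p, -1.22 for its seed relative miR-125a-5p and -2.08 for miR-99a-5p (adjusted exact permutation p from 0.00291 to 0.00583). The log2 difference of miR-100-5p minus miR-125b-5p was -3.03 ± 0.09 (SD, n = 7) in curcumin tumors, from -3.13 to -2.90, and -2.11 ± 0.33 (SD, n = 6) in control tumors, from -2.55 to -1.73. These ranges did not overlap, and curcumin tumor 5 at -2.98 lay with the other curcumin tumors. After quantile normalization these 2 miRNAs thus kept a nearly constant difference within the curcumin group, although their own levels varied by more than a log2 unit. Before normalization curcumin tumor 5 stood apart. Its summed signals were 76.0 for miR-100-5p and 470 for miR-125b-5p, a smaller gap on the log2 scale than in any other curcumin tumor (tumor 3: 228 and 1929). Both have a hairpin in the chromosome 9 cluster, but the miR-125b-5p value also holds the chromosome 16 hairpin.

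The change of miR-99a-5p minus that of miR-99b-5p was -1.04 and minus that of miR-100-5p -1.16 (adjusted exact permutation p = 0.033 for each), but its difference of -0.86 from miR-125a-5p did not pass (adjusted exact permutation p = 0.0605). The comparisons with miR-99b-5p and miR-100-5p lay close to the threshold. Leaving out 1 array at a time took the adjusted exact permutation p past it in 6 of 13 fits for miR-99b-5p, up to 0.0568. For miR-100-5p this happened in 9 of 13 fits, up to 0.0613. Over these fits the differences stayed between -1.26 and -0.93 and between -1.43 and -1.04. The differences were about -1.74 and -1.92 on slide 1 against -0.58 and -0.68 on slide 2. Among the 3 moderate increases, miR-99b-5p minus miR-100-5p was -0.12 (adjusted exact permutation p = 0.434), miR-99b-5p minus miR-125a-5p 0.18 (0.0605) and miR-100-5p minus miR-125a-5p 0.30 (0.0771), none of which passed. Without curcumin tumor 5, however, 3 comparisons did pass, miR-99a-5p minus miR-125a-5p at -1.03 (adjusted exact permutation p = 0.0271), miR-100-5p minus miR-125a-5p at 0.40 (0.0155) and miR-99b-5p minus miR-125a-5p at 0.20 (0.0433). The first of these also passed without curcumin tumor 7 (-0.99, adjusted exact permutation p = 0.0371) or control tumor 5 (-1.09, 0.0289), and the last without control tumor 1 (0.23, 0.0379).

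**Figure D3:**
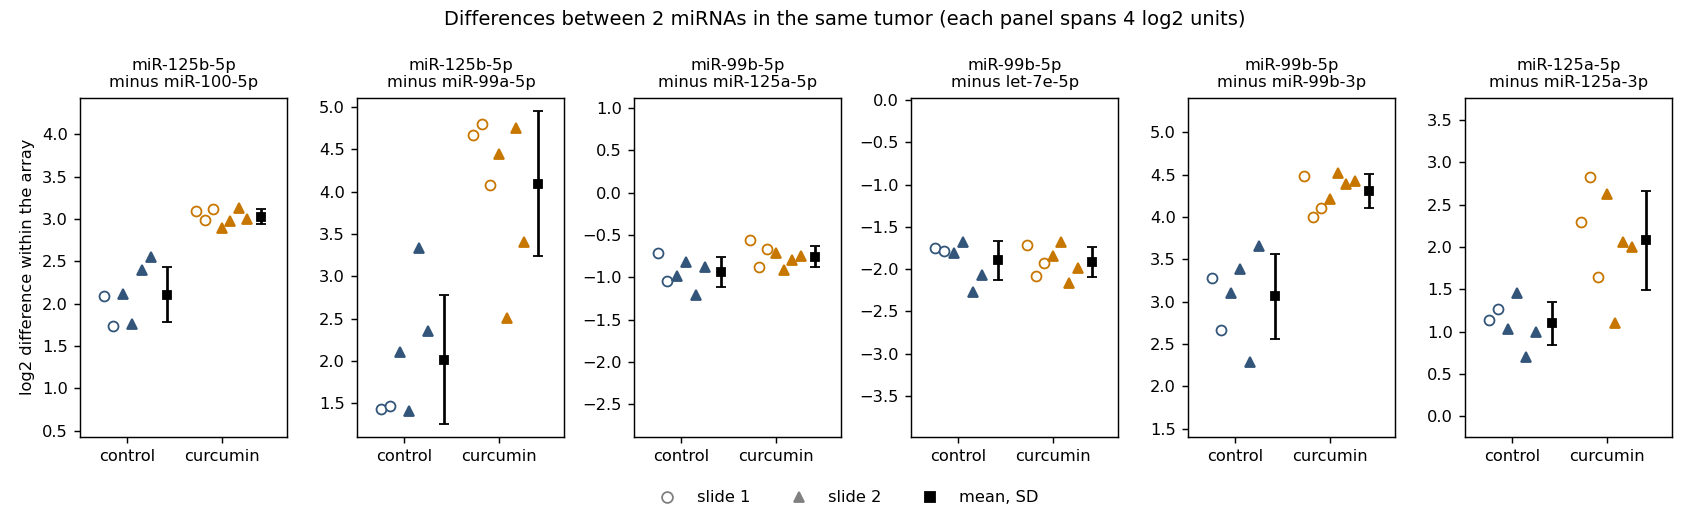
Log2 difference between 2 miRNAs on the same array (y axis) for 6 pairs (panels) in 6 control and 7 curcumin tumors, with open circles for slide 1, triangles for slide 2 and black squares with bars for mean and SD. The curcumin tumors lie above all controls for miR-125b-5p minus miR-100-5p and for miR-99b-5p minus miR-99b-3p, and the diets lie side by side for miR-99b-5p minus let-7e-5p.

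The let-7 neighbours were then set beside the 5 miRNAs, cluster by cluster. They share the seed GAGGUAG and are shown because the 3 differ by single bases, A19G from let-7a-5p to let-7c-5p and U9G from let-7a-5p to let-7e-5p.

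let-7a-5p: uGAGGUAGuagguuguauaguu

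let-7c-5p: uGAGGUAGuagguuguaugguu

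let-7e-5p: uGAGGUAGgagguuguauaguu

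On chromosome 17 all 3 neighbours were called higher, and none of the 3 passed without normalization between arrays, where let-7e-5p had 0.90 (limma adjusted p = 0.232). let-7e-5p had control levels from 7.88 to 8.38 and curcumin levels from 8.19 to 9.39, and its log2 fold change was 0.88 with a standard error of 0.18 (limma adjusted p = 0.00909, exact permutation p = 0.00291), beside 0.86 for miR-99b-5p and 0.68 for miR-125a-5p. Curcumin tumor 5 was again the lowest of its group, at 8.19. The log2 difference of miR-99b-5p minus let-7e-5p was -1.91 ± 0.18 (SD, n = 7) in curcumin and -1.90 ± 0.23 (SD, n = 6) in control tumors, a shift of -0.02 (adjusted exact permutation p = 0.870, over 6 pairs chosen after the values were seen). For miR-125a-5p minus let-7e-5p the shift was -0.20 (adjusted exact permutation p = 0.0997).

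On chromosome 9 the let-7 neighbour did not pass while miR-100-5p did, and on chromosome 16 neither miR-99a-5p nor its neighbour passed. let-7a-5p, the neighbour of miR-100-5p, had a log2 fold change of 0.14 (limma adjusted p = 0.687), and miR-100-5p rose more than it by 0.84 (adjusted exact permutation p = 0.00932). Unlike let-7e-5p, let-7a-5p and let-7c-5p are also made from hairpins outside these clusters, Mirlet7a-1 on chromosome 13 and Mirlet7c-2 on chromosome 15, and the array does not separate these sources. let-7c-5p, the neighbour of miR-99a-5p, had 0.27 (limma adjusted p = 0.480, and 0.0172 without control tumor 1, the tumor of highest let-7c-5p), and the shift of miR-99a-5p minus let-7c-5p was -0.45 (adjusted exact permutation p = 0.170). Of the 9 let-7 family miRNAs measured, all detected on every array, 1 was called higher, let-7e-5p, and the other 8 did not pass. Of the 243 detected miRNAs 20.2% were called higher. The 9 were measured with the other miRNAs in 1 fit. The median log2 fold change of the 9 let-7 family miRNAs was 0.12, beside -0.09 over the 243 detected miRNAs.

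**Figure D4:**
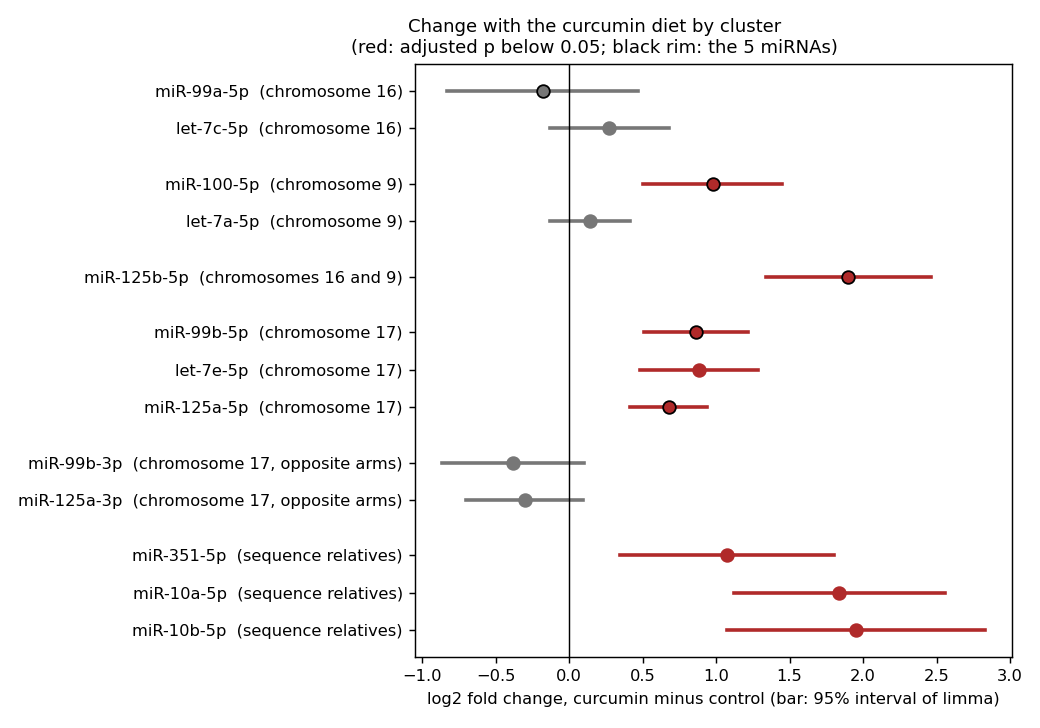
Log2 fold change of curcumin minus control with its 95% limma interval (x axis) for the 5 miRNAs (black rim), their let-7 neighbours, the opposite arms of 2 hairpins and sequence relatives (y axis, with chromosome), red where the limma adjusted p was below 0.05. The 3 neighbours on chromosome 17 lie at 0.68 to 0.88, their opposite arms lie below 0, and let-7a-5p and let-7c-5p lie near 0 beside miR-100-5p and miR-99a-5p.

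The opposite arm of a hairpin is cut from the same precursor and usually is the less stable product. Of 9 opposite arms measured for the 3 clusters, 6 were detected on no array and 1, miR-125b-1-3p, on 1 array. The 2 that could be read were both from chromosome 17. The hairpin of Mir125a is shown, with the 5p and 3p arms in capitals, because its arms moved unequally; it lies at chr17:17830812-17830879 on GRCm38.p6.

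Mir125a: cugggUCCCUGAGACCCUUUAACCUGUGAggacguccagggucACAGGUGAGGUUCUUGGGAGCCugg

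miR-125a-3p, detected on all 13 arrays, lay between 5.65 and 6.31 in control and between 5.25 and 6.31 in curcumin tumors, a log2 fold change of -0.30 (limma adjusted p = 0.383). Curcumin tumor 5, the lowest for the 5p arm, was the highest of its group for the 3p arm. The 5p minus 3p difference was from 0.70 to 1.45 in control and from 1.11 to 2.82 in curcumin tumors, an increase of 0.98 (adjusted exact permutation p = 0.00932, over the same 6 pairs) that was 1.05 on slide 1 and 0.90 on slide 2, and 0.65 with the normexp background correction.

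miR-99b-3p, detected in 6 of 7 curcumin and 6 of 6 control tumors, lay between 2.66 and 3.51 in control and between 1.98 and 3.31 in curcumin tumors, a log2 fold change of -0.38 (limma adjusted p = 0.350), which turned to 0.01 with the log2 values the authors deposited. The 5p minus 3p difference was from 2.29 to 3.65 in control and from 4.00 to 4.52 in curcumin tumors, without overlap. It rose by 1.24 (adjusted exact permutation p = 0.0035, over the same 6 pairs chosen after the values were seen). The increase was 1.22 on slide 1 and 1.28 on slide 2, fell to 0.82 with the deposited log2 values and to 0.57 with normexp, and passed under both. The part that background signal has in this difference was not tested.

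miR-100-3p was detected on no array and was at the floor of the log2 scale in all 6 control tumors, so no fold change is given, although it passed the fit (limma adjusted p = 0.00179).

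The 3 relatives measured outside the clusters were called higher as well, though none of them without normalization between arrays (limma adjusted p from 0.097 to 0.753). Of all mouse miRNAs 8.34% were called higher, and 20.2% of the 243 detected on all arrays. miR-351-5p, an X-linked miRNA with the miR-125 seed, and miR-10a-5p and miR-10b-5p of the Hox clusters, which lie 3 and 4 edits from miR-100-5p, are printed for comparison.

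miR-351-5p: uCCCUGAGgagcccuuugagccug

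miR-10a-5p: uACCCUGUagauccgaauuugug

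miR-10b-5p: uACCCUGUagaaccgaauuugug

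miR-10a-5p lay between 1.75 and 3.30 in control and between 3.73 and 5.68 in curcumin tumors, and rose by a log2 fold change of 1.84 (limma adjusted p = 0.00431). miR-10b-5p lay between 1.80 and 3.62 in control and between 3.98 and 6.26 in curcumin tumors, and rose by 1.95 (limma adjusted p = 0.0084). Both sets of tumors were without overlap, but the control signals were dim, with miR-10a-5p detected in 3 and miR-10b-5p in 4 of 6 control tumors. miR-351-5p lay between 1.43 and 2.65 in control and between 2.12 and 4.32 in curcumin tumors, with a log2 fold change of 1.07 at a limma adjusted p of 0.0494 that was lost in 12 of 13 fits leaving out 1 array, with p-values up to 0.096, and with slide as a block (limma adjusted p = 0.0679).

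The 5 miRNAs were also set against each other from tumor to tumor within each diet. The 10 pairs were correlated across the 7 curcumin and, separately, across the 6 control tumors, 20 relations in all, with exact permutation p-values adjusted over the 20. In curcumin tumors, miR-100-5p and miR-125b-5p had r = 0.98 (exact permutation p = 0.00238, adjusted 0.0143) and rho = 0.92 (exact permutation p = 0.00794, adjusted 0.0381), and r was 0.88 without curcumin tumors 3 and 5. miR-99b-5p and miR-125a-5p had r = 0.93 (adjusted exact permutation p = 0.0143), which was 0.70 without curcumin tumors 5 and 7. Pairs from different chromosomes passed too. miR-125a-5p had r = 0.84 with miR-125b-5p (adjusted exact permutation p = 0.0143) and 0.83 with miR-100-5p (0.0272), and miR-99b-5p had 0.87 with miR-125b-5p (0.0272) and 0.84 with miR-100-5p (0.0423). Without the 2 tumors farthest from the median, these were 0.89, 0.93, 0.59 and 0.50, so that the last 2 rested largely on curcumin tumors 5 and 7. The values of a tumor share its array and its normalization, and 3 and 4 curcumin tumors per slide were too few for correlations within slides.

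In the curcumin group, miR-99a-5p was lower in tumors with more miR-99b-5p and miR-125a-5p. Its r with miR-99b-5p was -0.95 (exact permutation p = 0.00357, adjusted 0.0143) and its rho -0.95 (exact permutation p = 0.00397, adjusted 0.0265), and with miR-125a-5p r was -0.94 (exact permutation p = 0.00119, adjusted 0.0143). Curcumin tumors 5 and 7 had the highest miR-99a-5p, 7.69 and 7.75, and the lowest miR-99b-5p, 6.50 and 6.72. Without these 2 tumors r was -0.87 with miR-99b-5p and -0.92 with miR-125a-5p over 5 tumors. With miR-100-5p and miR-125b-5p, r was -0.74 and -0.77 and did not pass (adjusted exact permutation p of 0.0904 and 0.0582). The r with miR-99b-5p was -0.90 with arrays scaled to the 75th percentile of the detected miRNAs and -0.96 with normexp, but without normalization between arrays the r of miR-99a-5p with each of the other 4 miRNAs was positive, from 0.31 to 0.46.

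In control tumors the same pair, miR-99a-5p and miR-99b-5p, had r = 0.95 (exact permutation p = 0.0111, adjusted 0.0278) and rho = 0.77 (exact permutation p = 0.103, adjusted 0.158). That relation rested on control tumors 1 and 5, at 8.11 and 6.13 for miR-99a-5p, without which r was 0.44, and r was 0.13 without normalization between arrays. No other pair passed in control tumors. There miR-99b-5p had r = 0.88 with miR-125a-5p (adjusted exact permutation p = 0.0556), which was 0.11 without control tumors 1 and 5. miR-100-5p had 0.64 with miR-125b-5p, 0.49 with miR-99b-5p and 0.43 with miR-125a-5p. miR-125b-5p had 0.21 with miR-125a-5p and 0.16 with miR-99b-5p. The difference between the diets in these relations was not tested.

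**Figure D5:**
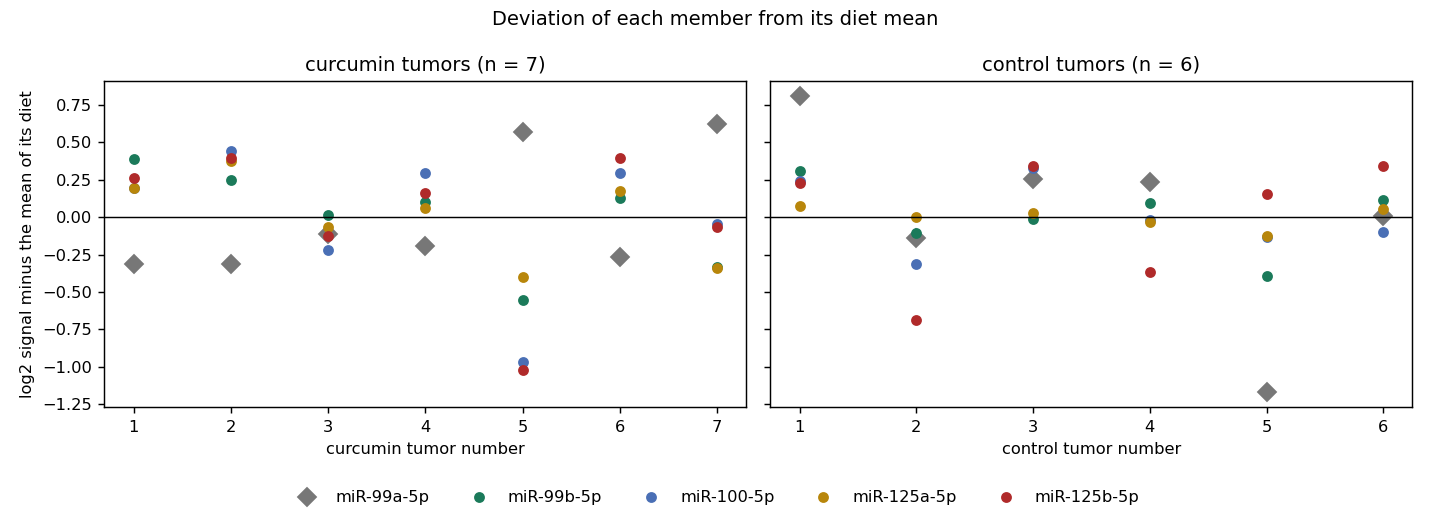
Log2 signal of each of the 5 miRNAs minus its mean over the tumors of the same diet (y axis) for each tumor (x axis), curcumin on the left and control on the right. In curcumin tumors 5 and 7 miR-99a-5p (diamonds) lies above 0 and the other 4 miRNAs below it, and in control tumors 1 and 5 miR-99a-5p has the widest deviations.

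After subtraction of the mean of each diet, the miRNAs most like each of the 5 over the 13 tumors were sought among the other 238 miRNAs detected on all arrays. For miR-100-5p these were miR-24-3p (r = 0.96), miR-26b-5p (0.91) and miR-24-2-5p (0.90). For miR-99b-5p they were miR-345-5p (0.93), miR-27b-3p (0.92) and miR-9-3p (0.91), and for miR-125a-5p miR-151-5p, miR-27b-3p and miR-23b-3p (0.92 each). miR-125b-5p was most like let-7e-5p of the chromosome 17 cluster (0.86), miR-338-3p (0.86) and miR-322-5p (0.83). miR-99a-5p had another set, miR-362-3p (0.88), miR-16-5p (0.87) and let-7d-5p (0.86). These values describe 13 tumors that share arrays and normalization.

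Markers of other cell types moved with the diet, and their part in the increases was not tested. A tumor sample is a mixture, in which fewer cells of a type and less RNA per cell cannot be told apart. Of 4 miRNAs known from fibroblasts, miR-199a-3p, miR-199a-5p and miR-199b-5p were higher in curcumin tumors and miR-214-3p did not pass (limma adjusted p = 0.0501), and their summed normalized signal was 701 to 1567 in curcumin against 163 to 504 in control tumors. Of 4 hematopoietic miRNAs all 4 were higher, with sums of 342 to 1347 against 84.4 to 286. Among them, miR-142-5p was detected in 3 and miR-150-5p in 0 of 6 control tumors, miR-150-5p with 3 values at the floor. As background for these lists, 8.34% of all mouse miRNAs and 20.2% of the 243 detected on all arrays were called higher. Among 7 epithelial miRNAs, 5 were detected on no array and 1, miR-205-5p, was called higher, with sums of 218 to 1739 against 3.28 to 165. miR-203-3p, detected in 5 of 7 curcumin and 2 of 6 control tumors, did not pass (limma adjusted p = 0.0517). Its curcumin levels were 1.87 to 3.53, beside 7.75 to 10.76 for miR-205-5p, so the epithelial sum in curcumin tumors was almost wholly miR-205-5p. Curcumin tumor 5, the lowest of its group for miR-99b-5p, miR-100-5p, miR-125a-5p and miR-125b-5p, was also the lowest for each of these 3 sums. It stood at place 2 of 7 from the lowest for the smooth muscle sum and at place 4 for the endothelial sum. For the skeletal muscle and erythroid sums it was the highest. Curcumin tumor 7 had the highest hematopoietic and fibroblast sums, 1347 and 1567, but was next to lowest for miR-99b-5p (6.72) and miR-125a-5p (7.48).

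The melanocytic pair, miR-211-5p and miR-204-5p, had sums of 4.19 to 624 in curcumin and 308 to 847 in control tumors, and curcumin tumor 5 was the highest of its group. miR-211-5p was called lower. miR-204-5p did not pass (log2 fold change -0.89, limma adjusted p = 0.346) and was dim, at 0.23 to 2.89 in curcumin and 0.65 to 2.80 in control tumors. The endothelial, smooth muscle and erythroid pairs did not pass the test, and 1 of 4 skeletal muscle miRNAs was called higher. The endothelial miR-126-3p and miR-126-5p had log2 fold changes of 0.83 and 0.96 (limma adjusted p = 0.0647 and 0.0758). The values were 0.20 and -0.05 for the smooth muscle pair and -0.82 and -1.07 for the erythroid pair.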

How the data were processed

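Total RNA of 13 flank tumors was hybridised to mouse Agilent miRNA arrays (design built on mm9) and read with Feature Extraction 10.10.1.1, per the file headers. The deposited scanner files hold linear intensity values after the scanner's background correction, and the authors also deposited log2 values, which they obtained by summing the probes of a miRNA, quantile normalization across arrays and log2.

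Here the summed probe intensities of 1079 mouse miRNAs were quantile normalized. Values at or below 0 (51.4%, and 0 among the 5 miRNAs) were set to the smallest positive value, log2 -7.03. The diets were compared with limma 3.58.1 in R 4.3.3, in which limma's moderated test replaced the plain two-group test of the study's methods, with Benjamini-Hochberg adjustment over all miRNAs and a threshold of 0.05. Single miRNAs and within-array differences were tested by exact permutation over the 1716 splits of the tumors, two-sided, with a smallest possible p of 0.000583. The limma step was tested on simulated data. A miRNA was detected where the scanner software said so. The number of arrays limits the precision. The study's methods give as many mice as tumors and the labels do not tie one to the other, so p-values measure only the spread between these tumors. By the methods, mice were housed in groups and the diet was given as chow. The labels name no cage, so a part of the cage in the diet differences was not tested.

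The text names the 5 miRNAs, their let-7 neighbours, opposite arms and relatives, the 3 most similar miRNAs of each, and cell type markers by counts and ranges. These miRNAs and lists were chosen with earlier results of these data known. Sequences and coordinates are from RefSeq (GRCm38.p6). The normalization, background correction (normexp, offset 50), floor, filter, test, slide, replicate number and samples were varied.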

Additional observations from a re-analysis of the deposited data

Results flagged for a closer look

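In 26 sets of values (the 5 miRNAs, the let-7 neighbours, the readable opposite arms and the relatives in each diet), the gap of the highest or lowest tumor to the next was compared with the range of its group by Dixon's test. It was wide in 4 of them. Chance alone gives about 1 in 20 for a single set, but the sets share the same 13 arrays, so the count cannot be held against that rate. For miR-125b-5p, curcumin tumor 5 was the lowest of 7 at 10.19, with the next tumor at 11.09 (log2 signals), and without it the log2 fold change was 2.08 in place of 1.90. For let-7c-5p, the same tumor was the lowest at 12.28, with the other 6 tied at 12.77. Quantile normalization made this tie, from summed signals of 4826 to 10019, so the gap filled the whole range and the test says little here. Control tumor 1 was the highest of 6 for let-7c-5p at 13.30, with the next at 12.40, and without it let-7c-5p passed the test at a log2 fold change of 0.45 (limma adjusted p = 0.0172). For miR-10b-5p, curcumin tumor 7 was the highest of 7 at 6.26, with the next at 4.89, and its call held without that tumor.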

How the results depend on the processing

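miR-99b-5p, miR-100-5p, miR-125a-5p and miR-125b-5p kept their direction under all alternatives tried, and kept their calls with the deposited log2 values, both 75th-percentile scalings, normexp, the filter, the floor of 1, the methods' t-test, slide as a block, each probe, and each array left out. Over leaving out 1 array, the log2 fold changes were 0.80 to 0.95, 0.90 to 1.15, 0.63 to 0.75 and 1.78 to 2.08 in that order, and -0.43 to -0.01 for miR-99a-5p. Without normalization between arrays 1 of the 5 was called, and 0.68 for miR-99b-5p, 0.97 for miR-100-5p and 0.73 for miR-125a-5p no longer passed. Within slides 1 and 2 none passed: 0.98 and 0.75, 1.15 and 0.85, 0.80 and 0.57, and 2.31 and 1.65 in the same order, and miR-99a-5p reversed to 0.17 on slide 2. Each slide held fewer tumors, and the cause was not tested.

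The replicate numbers did not pair the tumors (correlations of same-numbered deviations from -0.30 to 0.20, and 0 of 6 numbers correlated best with itself). With the replicate block, miR-100-5p (0.98, limma adjusted p = 0.0722), miR-351-5p (1.09, adjusted p = 0.204) and the difference of miR-99a-5p from miR-100-5p (-1.27, adjusted p = 0.0614) did not pass, and 67 miRNAs were called, 45 higher and 22 lower, against 171, 90 and 81. The counts were 49, 10 and 39 without normalization, 105 in all and 32 lower with the 75th percentile of all miRNAs, and 123 lower with the deposited values. Leaving out 1 array gave 102 to 184 in all, 63 to 99 higher and 38 to 85 lower; the count in all moved by over 1.5 times without curcumin tumor 1 (113), 2 (112) or 6 (105) or control tumor 2 (102) or 4 (108).

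The difference of miR-99a-5p from miR-125a-5p passed without normalization (-0.96) and with normexp (-0.65). miR-99b-5p minus miR-125a-5p reversed to -0.056 without normalization, miR-99b-3p to 0.0067 with the deposited values, and miR-99b-5p minus let-7e-5p to 0.041 on slide 2 and in 5 of 13 fits without 1 array (-0.064 to 0.023). Leaving out 1 array, miR-99a-5p differed from miR-99b-5p by -1.26 to -0.93, from miR-100-5p by -1.43 to -1.04 and from miR-125a-5p by -1.09 to -0.70, miR-99b-5p from miR-125a-5p by 0.15 to 0.23 and miR-100-5p from miR-125a-5p by 0.24 to 0.40. Low signal over background limits the opposite arms, the miR-10 pair and miR-351-5p.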
